A study of Mus musculus with 6 samples.

Results

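The 10 genes described here encode inflammatory cytokines and mediators made by macrophages: the cytokines TNF, IL-1beta, IL-1alpha and IL-6 (Tnf, Il1b, Il1a, Il6), the IL-1 receptor antagonist (Il1rn), the itaconate-making enzyme ACOD1 (Acod1), serum amyloid A3 (Saa3), inducible nitric oxide synthase (Nos2) and the cyclooxygenases COX-1 and COX-2 (Ptgs1, Ptgs2). They were taken by gene name from a table of 54532 genes, and all 10 were found. Messenger RNA had been sequenced from macrophages cultured from C57BL/6J bone marrow, the mouse strain being inbred. A control group of 3 libraries was compared with 3 libraries from cells given recombinant CCL3, a chemokine that binds receptors on macrophages, for 3 days after 7 days of culture. Another reading of the design text has CCL3 in the first culture too, and how the control cells were kept meanwhile is not stated in the labels.

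Values are FPKM as deposited by the authors, that is, fragment counts divided by the length of the gene and a size factor of the library. The fragments behind them could be recovered and came to between 17399194 and 18609737 per library. The total of fragments, set against that size factor, was between 0.851 and 0.895 in control and between 1.05 and 1.20 with CCL3, so a scaling by plain totals moves the median of all genes by -0.28 on the log2 scale, and a scaling to TPM moves it by -0.48. The labels do not say whether libraries came from separate animals or cultures, and the tests below therefore speak only of the spread among these 6 samples, part of which may be technical. Macrophage markers summed to between 17100 and 28920 FPKM in control and between 11260 and 15700 with CCL3, led by Lyz2 and Cd68. Most of that sum was Lyz2, at a mean of 20061 FPKM in control and 10558 FPKM with CCL3. The other 9 markers summed to between 2847 and 3208 FPKM in control and between 3208 and 3587 with CCL3. Of the 10 markers, 3 (Cd68, Spi1 and Mrc1) were higher with CCL3 and 2 (Lyz2 and Cd14) were lower, and their part in the results below was not tested. In bulk RNA, fewer expressing cells and less RNA per cell cannot be told apart.

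Macrophages that sense microbial products or tissue damage switch on Tnf, Il1b, Il6, Nos2, Ptgs2 and Acod1 through NF-kappaB and related transcription factors, and the resulting proteins recruit and activate other cells. Many of these messenger RNAs are short-lived, because AU-rich elements after the stop codon recruit decay proteins of the tristetraprolin (Zfp36) family. Some products restrain the response: Il1rn encodes a protein that blocks the IL-1 receptor, and itaconate, the product of ACOD1, inhibits succinate dehydrogenase.

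CCL3-treated macrophages held less Tnf and Acod1 and more Saa3 messenger RNA than control macrophages. Only 4 of the 10 genes, Tnf, Acod1, Ptgs1 and Saa3, reached the level required for testing, an average of 1 FPKM or more across libraries. In limma on log2(FPKM + 1), with p-values adjusted by Benjamini-Hochberg across the 9218 genes tested and called below 0.05, 1 of the 4 was higher with CCL3 and 2 were lower, while 18.0% of all genes tested were called higher, 14.5% were called lower and 32.4% were called in either direction. With 3 of 4 called against that background, the count alone does not set these genes apart. Their median log2 fold change was -0.70, beside 0.0066 over all genes tested. Fold changes on this scale understate the change of low genes.

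**Figure D1:**
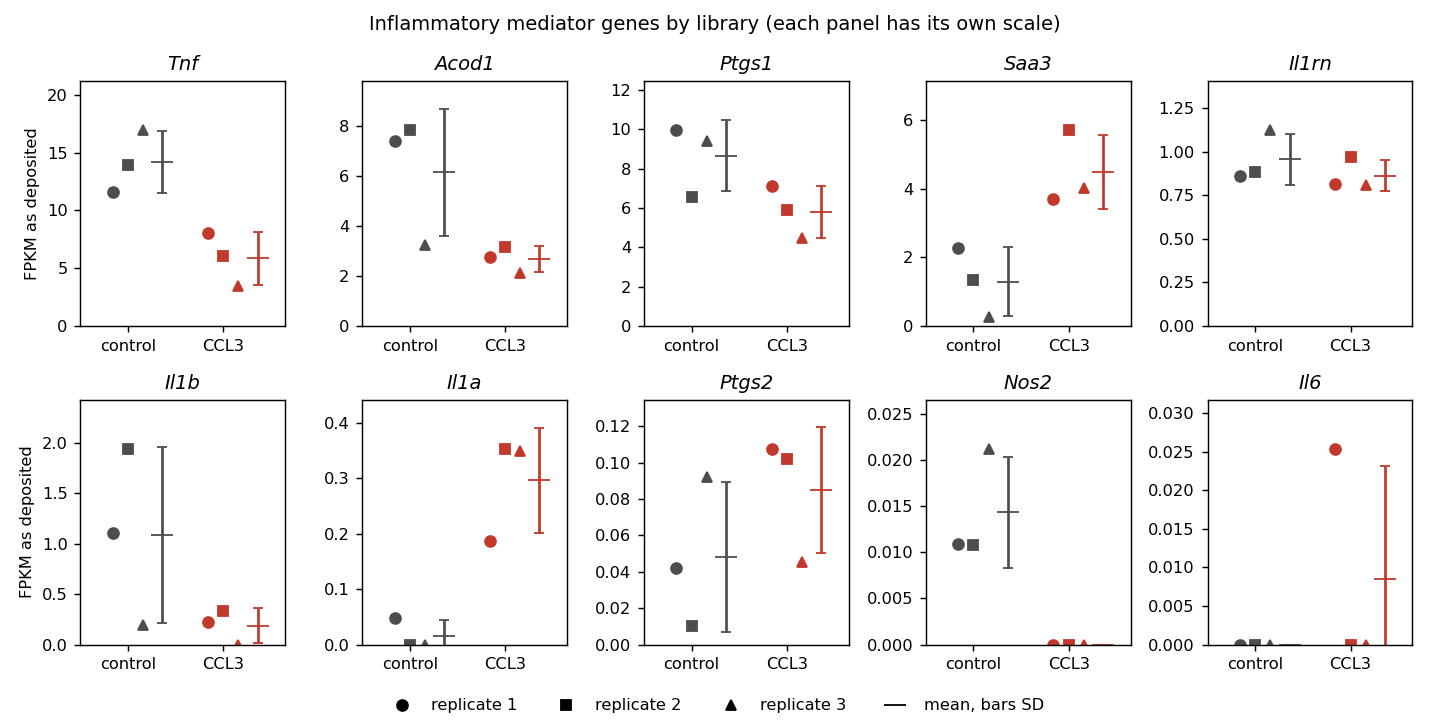
FPKM of each of the 10 genes in every library, control and CCL3, each panel with its own linear axis from 0, points for libraries and bars for the mean with SD (n = 3). Tnf and Acod1 lie lower and Saa3 lies higher in all 3 CCL3 libraries than in any control library, while Il6 and Nos2 lie at or close to 0 throughout.

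Tnf (ENSMUSG00000024401; mm10 chromosome 17, 35199381 to 35202007, minus strand) encodes the cytokine TNF. It stood at 11.6, 13.97 and 17.0 FPKM in control replicates 1 to 3, from 395, 482 and 594 fragments. With CCL3 it stood at 8.05, 6.04 and 3.45 FPKM, from 214, 170 and 82 fragments. Every CCL3 library lay below every control library, as was the case in one direction or the other for 48.6% of all genes tested. The mean fell from 14.2 ± 2.69 FPKM (SD, n = 3) to 5.85 ± 2.31 (SD, n = 3), a 2.43-fold lower level. The log2 fold change was -1.19 ± 0.26 (SE, limma adjusted p = 0.0130). The call was kept in 18 of 19 alternative settings and lost with no filter on low genes (limma adjusted p = 0.0532). Among the 19, here and for the genes below, is a median-ratio scaling that equals the deposited values, so its result was fixed in advance. Without both replicates numbered 3, the log2 fold change was -0.78 (limma adjusted p = 0.0284).

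Acod1 (ENSMUSG00000022126; chromosome 14, 103046977 to 103056573, plus strand) encodes the mitochondrial enzyme that makes itaconate from cis-aconitate. It stood at 7.37, 7.83 and 3.23 FPKM in control and at 2.75, 3.15 and 2.10 FPKM with CCL3, from 402, 432 and 181 fragments and from 117, 142 and 80 fragments. The groups did not overlap, but control replicate 3, at less than either other control library, lay just above CCL3 replicate 2. The mean fell from 6.14 ± 2.53 FPKM to 2.67 ± 0.530 FPKM (SD, n = 3 each), with a log2 fold change of -0.90 ± 0.28 (SE, limma adjusted p = 0.0432). The call was lost in 11 of 19 alternative settings, among them a correction for GC content and leaving out any library other than control replicate 3 (limma adjusted p up to 0.149 over all settings). Without control replicate 3, the log2 fold change was -1.24 (limma adjusted p = 0.00491).

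Saa3 (ENSMUSG00000040026; chromosome 7, 46711998 to 46715700, minus strand) encodes an acute phase apolipoprotein that mouse macrophages make outside the liver. It stood at 2.27, 1.35 and 0.269 FPKM in control, from 123, 74 and 15 fragments. With CCL3 it stood at 3.72, 5.72 and 4.02 FPKM, from 157, 256 and 152 fragments. All 3 CCL3 libraries lay above all 3 control libraries, and control replicate 3 was the lowest. The mean rose from 1.30 ± 1.002 FPKM to 4.49 ± 1.08 FPKM (SD, n = 3 each), a 3.46-fold higher level, with a log2 fold change of 1.34 ± 0.33 (SE, limma adjusted p = 0.0182). The rise passed in 17 of 19 alternative settings and was lost without CCL3 replicate 2 (limma adjusted p = 0.0553) and with no filter on low genes (limma adjusted p = 0.0748). On the scale of recovered fragments, where low genes are less compressed, the log2 fold change was 2.21.

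The sequences around the start sites of Tnf, Acod1 and Saa3 are shown because these are the 3 genes that passed. Each runs from 250 bases before to 50 bases after the start, 5′ to 3′ on the gene's own strand, from RefSeq on GRCm38.p6, with capitals marking TATAAA.
Tnf, chr17:35201958-35202257, minus strand: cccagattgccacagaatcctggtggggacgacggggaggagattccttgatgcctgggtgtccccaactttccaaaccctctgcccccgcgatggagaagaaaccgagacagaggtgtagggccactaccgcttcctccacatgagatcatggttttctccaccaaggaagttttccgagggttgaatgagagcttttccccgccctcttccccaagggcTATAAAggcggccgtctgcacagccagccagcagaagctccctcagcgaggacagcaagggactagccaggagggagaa
Acod1, chr14:103046762-103047061, plus strand: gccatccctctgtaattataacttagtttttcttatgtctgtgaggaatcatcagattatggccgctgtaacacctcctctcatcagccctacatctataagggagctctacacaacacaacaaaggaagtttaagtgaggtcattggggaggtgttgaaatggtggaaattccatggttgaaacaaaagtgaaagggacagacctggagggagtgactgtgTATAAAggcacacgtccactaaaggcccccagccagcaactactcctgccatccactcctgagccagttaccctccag
Saa3, chr7:46715627-46715926, minus strand: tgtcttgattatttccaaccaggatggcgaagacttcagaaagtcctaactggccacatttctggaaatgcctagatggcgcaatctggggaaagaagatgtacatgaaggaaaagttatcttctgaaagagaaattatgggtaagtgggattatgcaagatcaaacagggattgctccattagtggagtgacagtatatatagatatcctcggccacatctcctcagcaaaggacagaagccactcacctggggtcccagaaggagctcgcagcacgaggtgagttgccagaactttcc
RefSeq windows matched 9 of the 10 genes; Nos2 had none. Motifs were searched on both strands. They were the TATA box as TATAAA, the site of AP-1 as TGANTCA, the C/EBP palindrome as TTGCGCAA, and the NF-kappaB consensus, 4 in all, and no match overlapped another. TATAAA began 29 bases before the start in Tnf, 28 in Acod1, 31 in Il1b and 32 in Il1a, and it lay on the reverse strand in a further window of Il1rn, so 5 of the 11 windows of these genes held it, beside 13.6% of all 32851 windows. TGANTCA lay in 3 of the 11, of Il1a, Il1rn and Il6, beside 7.81% of all windows. The NF-kappaB consensus lay in the Il6 window, 44 bases before the start, beside 4.51% of all windows. TTGCGCAA lay in the Ptgs2 window, 69 bases before the start, beside 0.183% of all windows; these letters were set after the windows had been seen. The Saa3 and Ptgs1 windows held none of the 4. A match is a description and not a site, and a window without one says only that these letters are not in it.

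The other cytokine genes were low. Il1b (ENSMUSG00000027398; chromosome 2, 129364570 to 129371139, minus strand) encodes IL-1beta, a fever-inducing cytokine released after cleavage by caspase-1. It stood at 1.11, 1.94 and 0.196 FPKM in control and at 0.226, 0.336 and 0 FPKM with CCL3, from 44, 78 and 8 fragments and from 7, 11 and 0 fragments. The groups overlapped, because control replicate 3 lay below CCL3 replicates 1 and 2. Summed over libraries, 130 fragments in control and 18 with CCL3 gave a control to CCL3 ratio of 5.47 (95% exact interval 3.33 to 9.53, counting error only). Between libraries an exact permutation test of 3 against 3, which cannot go below 0.1, gave p = 0.3 (two-sided). In the 4 settings that tested Il1b, the limma adjusted p lay between 0.110 and 0.228.

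Il1a (ENSMUSG00000027399; chromosome 2, 129299610 to 129309972, minus strand) encodes IL-1alpha, which acts through the same receptor. It had 2, 0 and 0 fragments in control and 6, 12 and 10 fragments with CCL3, that is, 0.0487, 0 and 0 FPKM against 0.187, 0.354 and 0.349 FPKM. The CCL3 libraries lay above the control libraries, on very few fragments, and the ratio of CCL3 to control was 18.5 (95% exact interval 4.66 to 160, counting error only). With the filter lowered to a mean of 0.1 FPKM, where 11.3% of genes were called higher, Il1a was among them, but it passes that filter only through its CCL3 libraries, so the call is no support for a difference. An exact permutation test gave p = 0.1 (two-sided), the smallest that 3 against 3 allows. Per gene length, Il1a and Il1b, neighbours 54598 bases apart, were at a similar level in CCL3 replicates 1 and 2, with Il1a over Il1b at 0.828 and 1.05, against 0.0439 in control replicate 1 and 0 in the other control libraries. CCL3 replicate 3 had 10 Il1a fragments and 0 Il1b fragments.

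Il1rn (ENSMUSG00000026981; chromosome 2, 24336853 to 24351494, plus strand) encodes the IL-1 receptor antagonist. It stood at 0.861, 0.884 and 1.12 FPKM in control and at 0.813, 0.968 and 0.810 FPKM with CCL3, and the groups overlapped. The CCL3 to control ratio was 0.906 (95% exact interval 0.763 to 1.08, counting error only), from 335 and 230 fragments. Il1rn over Il1b, the antagonist over an agonist of the same receptor, was 0.775 and 0.455 in control replicates 1 and 2, 5.73 in control replicate 3, and 3.59 and 2.88 in CCL3 replicates 1 and 2. Il1rn is also low in FPKM for its fragments, and on GENCODE M21 transcript lengths the ratio was 1.54, 0.902 and 11.4 in the 3 control libraries and 7.12 and 5.71 in CCL3 replicates 1 and 2. In CCL3 replicate 3 the ratio has no value, because Il1b was listed at 0. Control replicate 3 thus lay above the other control libraries and above CCL3 replicates 1 and 2 in this ratio. The Il1b values behind it came from only 8 fragments in control replicate 3 and 7 and 11 in CCL3 replicates 1 and 2. These ratios are therefore uncertain.

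Il6 (ENSMUSG00000025746; chromosome 5, 30013114 to 30019981, plus strand) encodes the cytokine IL-6 and had 0 fragments in 5 libraries and 1 fragment in CCL3 replicate 1. A count of 0 allows up to 3 fragments, which is between 0.0578 and 0.0852 FPKM per library, so no difference was detectable at this depth. Nos2 (ENSMUSG00000020826; chromosome 11, 78920787 to 78960254, plus strand) encodes the enzyme that makes nitric oxide from arginine in activated mouse macrophages. It had 1, 1 and 2 fragments in control and 0 in every CCL3 library. All of these lie under the floor of 3 fragments per library, and no fold is given for either gene.

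The cyclooxygenase genes encode the enzymes that turn arachidonic acid into prostaglandin H. Ptgs1 (ENSMUSG00000047250; chromosome 2, 36230426 to 36252272, plus strand), the constitutive form, stood at 9.96, 6.58 and 9.40 FPKM in control and at 7.10, 5.88 and 4.45 FPKM with CCL3. The groups overlapped, since CCL3 replicate 1 lay above control replicate 2. Means were 8.65 ± 1.81 and 5.81 ± 1.32 FPKM (SD, n = 3 each), and the log2 fold change of -0.50 ± 0.20 did not pass (SE, limma adjusted p = 0.0902). Ptgs1 passed as lower under TPM scaling, at -1.05 (limma adjusted p = 0.00817; 5.50% of all genes called higher and 43.2% lower there), and under plain totals, at -0.81 (limma adjusted p = 0.0180; 8.71% higher and 33.1% lower). Relative to the median of all genes under each scaling, these changes were -0.57 and -0.53, beside -0.51 with the deposited values. Each scaling multiplies a library by a single factor, which subtracting the median largely removes, so this closeness was nearly fixed in advance.

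Ptgs2 (ENSMUSG00000032487; chromosome 1, 150100031 to 150108227, plus strand), the inducible form, had 4, 1 and 9 fragments in control and 8, 8 and 3 with CCL3, and the groups overlapped. Its CCL3 to control ratio was 1.79 (95% exact interval 0.851 to 3.86, counting error only). Ptgs1 exceeded Ptgs2 per gene length in every library, with between 251 and 804 Ptgs1 fragments against between 1 and 9 Ptgs2 fragments; with so few, no ratio between them is given.

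Relative to the median of all genes, Tnf was at -1.30 under TPM and -1.23 under plain totals, Acod1 at -1.01 and -0.90, and Saa3 at 1.75 and 1.40. The directions kept here were nearly fixed in advance, because subtracting the median largely removes the single factor by which each scaling changes a library. The unadjusted log2 fold changes were -1.78 and -1.51 for Tnf, -1.49 and -1.18 for Acod1, and 1.27 and 1.12 for Saa3, each past the limma threshold.

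**Figure D2:**
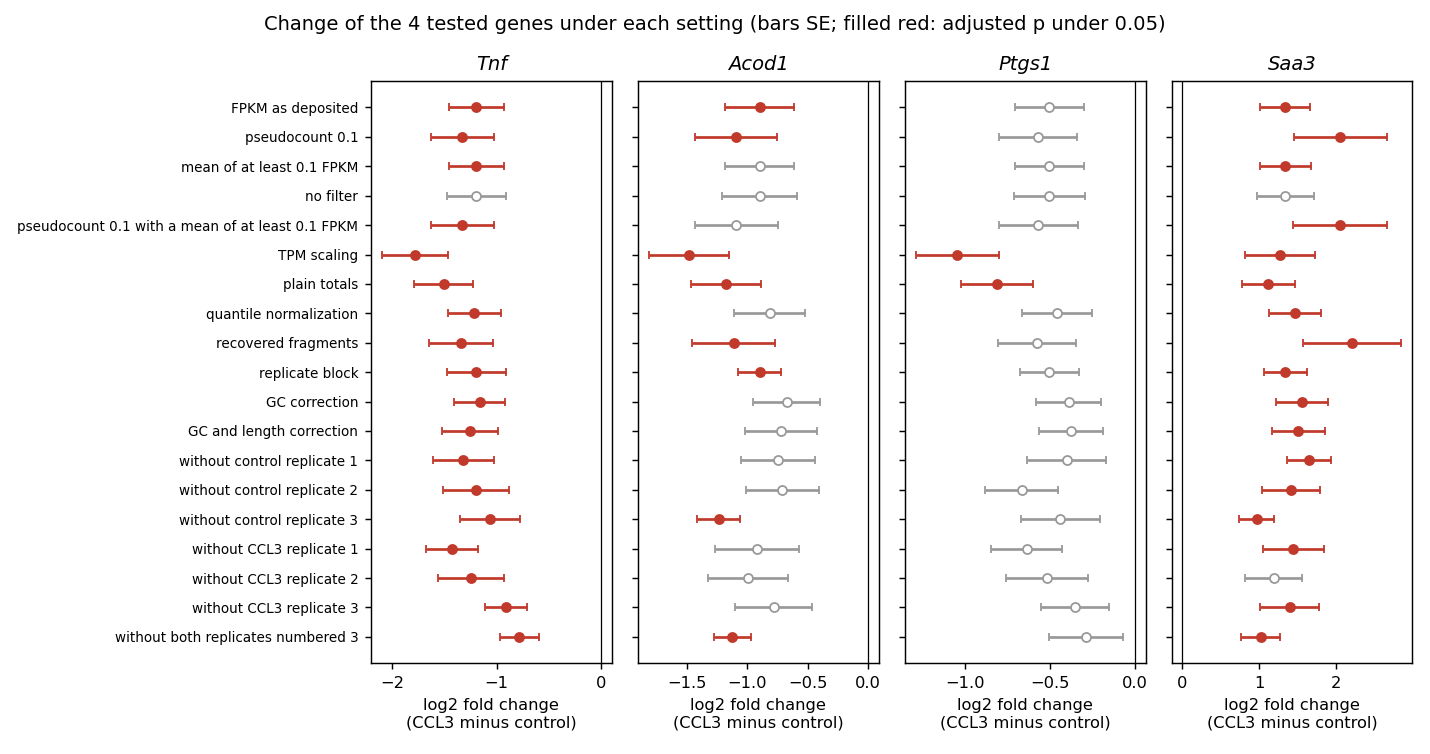
Log2 fold change (CCL3 minus control, with SE) of Tnf, Acod1, Ptgs1 and Saa3 under the deposited FPKM and 18 alternative settings, filled where the limma adjusted p was under 0.05. A median-ratio scaling, not drawn, equals the deposited values; Tnf, Acod1 and Ptgs1 lie below 0 and Saa3 lies above 0 in every setting drawn, while Acod1 and Ptgs1 pass in only some.

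The order of levels within a group differed between control and CCL3. In control macrophages, Tnf had the highest mean FPKM, followed by Ptgs1 and Acod1, whose libraries overlapped one another, and then by Saa3, Il1b and Il1rn, which also overlapped. With CCL3, Tnf, Ptgs1 and Saa3 overlapped in sequence at the top, Acod1 and Il1rn followed, and Il1a, Il1b and Ptgs2 overlapped below them. The deposited gene length of Saa3 is 4.70 times that of its GENCODE M21 transcript, so its FPKM is low for its fragments; divided by transcript length, Saa3 stood at 6.09 ± 4.70 in control, the fourth highest of the 10, and at 21.1 ± 5.07 with CCL3, the highest (SD, n = 3 each). Other places in the order also moved on transcript lengths. With CCL3, Ptgs1 at 7.87 ± 1.79 then ranked above Tnf at 5.85 ± 2.31 (SD, n = 3 each). In control, Il1rn at 2.67 ± 0.407 then ranked above Il1b at 1.52 ± 1.23 (SD, n = 3 each). The ratio of group means of a gene does not depend on its length.

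Ratios between genes within a library do not depend on the scaling between libraries. The 3 control libraries had Saa3 over Tnf, in FPKM, of 0.196, 0.0966 and 0.0159, and the CCL3 libraries of 0.461, 0.947 and 1.17, with no overlap. That separation was given in advance, since every CCL3 library lay above control for Saa3 and below control for Tnf. Tnf over Ptgs1 came to 1.16, 2.12 and 1.80 in control, and to 1.13, 1.03 and 0.774 with CCL3, again with no overlap, although CCL3 replicate 1 and control replicate 1 nearly met. Tnf over Acod1 came to 1.57, 1.79 and 5.25 in control, and to 2.93, 1.92 and 1.64 with CCL3; the groups overlapped, with control replicate 3 the highest. The genes that were lower with CCL3 therefore did not keep a fixed proportion to one another across control libraries. These ratios carry no test.

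**Figure D3:**
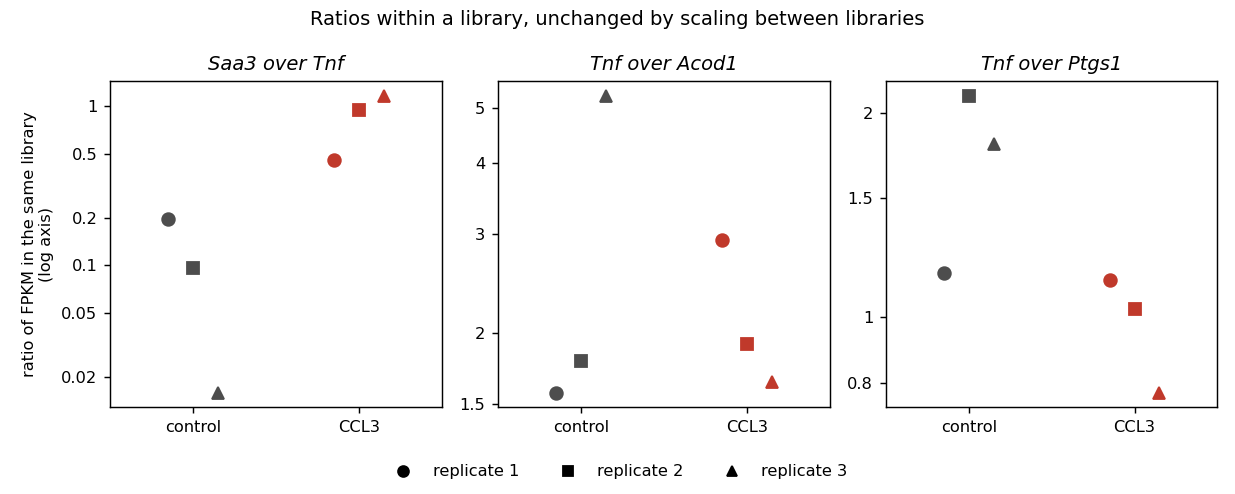
Ratios of FPKM between pairs of the genes in each library on a log axis, with 1 point for each of the 3 control and 3 CCL3 libraries. Saa3 over Tnf lies between 0.0159 and 0.196 in control and between 0.461 and 1.17 with CCL3, whereas Tnf over Acod1 overlaps between groups.

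Stretches of AU-rich sequence after the stop codon are shown for 3 of the genes, as the element by which such messenger RNAs are known to be marked for decay. Each is 30 bases of the GENCODE M21 transcript with the longest coding sequence, 5′ to 3′ on the messenger RNA strand, with every ATTTA pentamer in capitals.
Tnf: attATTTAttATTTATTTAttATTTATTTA
Il1b: caaccacttacctATTTATTTAtgtATTTA
Ptgs2: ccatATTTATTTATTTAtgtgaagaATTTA
The Tnf site begins at base 437 after the stop codon. In the whole stretch after the stop codon Tnf held 8 ATTTA pentamers, Il6 held 6, Il1b held 4, Il1a and Nos2 held 3 each, Ptgs2 held 14 and Acod1 held 1. Il1rn, Saa3 and Ptgs1 held 0. The longer form TTATTTATT occurred 5 times in Tnf and 1 time each in Acod1 and Ptgs2, so 3 of 10 genes held it, beside 6.06% of tested genes and 6.90% of all coding genes. Of the genes that passed, the lower ones held the longer form and the higher one, Saa3, held no pentamer. Saa3 has only 128 bases after the stop codon, beside a median of 870 over tested genes, so its count of 0 says little. Tnf held 10.5 pentamers per kb and Acod1 held 0.939, beside 1.63 over tested genes. With 3 genes this is a description.

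Pathway genes around these 10 were read from 10 lists with 182 names, of which 178 were in the table and 108 were tested. Among them 15 were higher with CCL3 and 15 were lower, with a median log2 fold change of -0.02, beside the 18.0% and 14.5% of all genes tested. The 15 lower genes were called again under TPM scaling and under plain totals, whereas of the 15 higher genes 5 were called again under TPM (Ninj1, Ptges2, Slc25a1, Hp and Tgfb1) and 7 under plain totals (these with Ddah2 and Scarb1). Tnip1, Pias3, Slc25a11 and Mapkapk2 changed sign under TPM. In counts over all tested pathway genes, 5 were higher and 47 lower under TPM, where 5.50% of all genes tested were called higher and 43.2% lower. Under plain totals 7 were higher and 34 lower, beside 8.71% and 33.1% of all genes tested. Both scalings move the median of all genes down, which favours calls of lower genes. The counts per list below stand beside these same shares. After quantile normalization, 10 of the 15 higher and 13 of the 15 lower genes were called again. Without control replicate 2, the library whose absence moved these counts most, 5 pathway genes were higher and 7 were lower. Changes given for these genes are log2 fold changes, CCL3 minus control, on log2(FPKM + 1), with SE where shown.

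Around the IL-1 cytokines, 1 of 10 tested family, receptor and adaptor genes rose and 1 fell (0 and 4 under TPM, 0 and 3 under plain totals). Il18bp, which encodes a secreted inhibitor of IL-18, rose with a log2 fold change of 0.81 ± 0.23 (SE, limma adjusted p = 0.0290), and Tollip, an adaptor that dampens IL-1 receptor signalling, fell by 0.71 (limma adjusted p = 0.0348). Of 9 tested genes of IL-1beta maturation and release, Nlrp3, the sensor of the caspase-1 inflammasome, fell from 17.4 ± 1.85 to 4.50 ± 0.991 FPKM (SD, n = 3 each; log2 fold change -1.76 ± 0.17, limma adjusted p = 0.00310). Its libraries were 15.6, 19.3 and 17.4 FPKM in control and 5.56, 3.60 and 4.33 FPKM with CCL3. Ninj1, which ruptures the membrane of dying cells, rose from 317 ± 50.8 to 661 ± 83.6 FPKM (1.06 ± 0.17, limma adjusted p = 0.00482), but did not pass after quantile normalization (0.50, limma adjusted p = 0.115).

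Around TNF, 2 of 15 tested genes rose and 0 fell. Under TPM 0 were higher and 6 lower, where 5.50% of all genes tested were called higher and 43.2% lower. Under plain totals 0 were higher and 2 lower, beside 8.71% and 33.1%. Tradd, an adaptor of TNF receptor 1, rose by 0.71 ± 0.15 (SE, limma adjusted p = 0.0127; 0.359 under TPM), and Tnip1, a partner of the inhibitor A20, rose by 0.46 ± 0.14 (limma adjusted p = 0.0404), a sign that turns to -0.07 under TPM scaling. Around IL-6, 1 of 10 rose and 2 fell. Osm, a cytokine of the IL-6 family, fell by 1.24 (limma adjusted p = 0.00669) and Ptpn11, a phosphatase that acts downstream of the shared receptor, fell by 0.76 (limma adjusted p = 0.00750). Pias3, an inhibitor of STAT3, rose by 0.44 (limma adjusted p = 0.0370) and was at -0.04 under TPM scaling.

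In the prostanoid and leukotriene pathway, where Ptgs1 did not pass, 4 of 14 tested genes fell and 1 rose. Alox5, the enzyme that starts leukotriene synthesis, stood at 6.97, 12.5 and 20.8 FPKM in control and at 3.54, 3.56 and 3.53 FPKM with CCL3. The control libraries were widely spread while the CCL3 libraries were nearly equal, and the log2 fold change was -1.55 ± 0.32 (SE, limma adjusted p = 0.0102). Abcc4, a prostaglandin exporter, and Ptgr1, a prostaglandin and leukotriene reductase, each fell by 0.69 (limma adjusted p = 0.0167 and 0.0180). Ptgir, the prostacyclin receptor, also fell, by 0.65 (limma adjusted p = 0.0249). It lies outside the naming rule and was chosen after its values were seen. Ptges2, a prostaglandin E synthase, rose from 5.25 ± 1.09 to 13.3 ± 2.98 FPKM (1.18 ± 0.20, limma adjusted p = 0.00523).

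Around nitric oxide, 2 of 9 tested genes rose and 0 fell. Under TPM 0 were higher and 3 lower, beside 5.50% and 43.2% of all genes tested. Under plain totals 1 was higher and 0 lower, beside 8.71% and 33.1%. Ddah2, which in mammals is linked to the breakdown of nitric oxide synthase inhibitors, rose by 1.05 ± 0.24 (limma adjusted p = 0.0156), and Spr, which makes the cofactor tetrahydrobiopterin, rose by 1.03 ± 0.28 (limma adjusted p = 0.0287). Under TPM scaling neither passed. Around itaconate, 2 of 18 rose and 2 fell (1 and 7 under TPM, 1 and 4 under plain totals): Slc25a1, the mitochondrial citrate carrier, rose by 0.96 ± 0.15 (limma adjusted p = 0.00441), and Sdhd, a succinate dehydrogenase subunit, fell by 1.02 (limma adjusted p = 0.00404). Aco1, the cytosolic aconitase, fell by 0.57 (limma adjusted p = 0.0213), and Slc25a11, the oxoglutarate carrier, rose by 0.47 (limma adjusted p = 0.0344), at -0.07 under TPM scaling.

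Beside Saa3, 2 of 3 tested acute phase genes and receptors rose. Hp, which encodes the haemoglobin-binding protein haptoglobin, rose by 0.997 ± 0.22 (limma adjusted p = 0.0130), and Scarb1, a lipoprotein receptor that also binds serum amyloid A, rose by 0.78 ± 0.15 (limma adjusted p = 0.00749). The other serum amyloid genes Saa1, Saa2 and Saa4 were listed at 0 in all 6 libraries.

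Of 12 tested genes that control cytokine messenger RNA decay, 4 fell and 1 rose. Dusp1, a phosphatase that limits p38 signalling, fell from 23.8 ± 1.81 to 10.3 ± 2.77 FPKM (SD, n = 3 each; log2 fold change -1.16 ± 0.20, limma adjusted p = 0.00552). Zfp36l2, of the tristetraprolin family, fell by 0.80 (limma adjusted p = 0.0212), Mapk14, the p38 kinase, fell by 0.62 (limma adjusted p = 0.0158), and Tial1, which binds AU-rich elements, fell by 0.47 (limma adjusted p = 0.0349). Zfp36 itself did not pass, at -0.14 (limma adjusted p = 0.514), and was chosen after its values were seen. Mapkapk2, a kinase that phosphorylates tristetraprolin, was higher at 0.40 (limma adjusted p = 0.0405) and at -0.13 under TPM scaling and -0.02 after quantile normalization; it too was chosen after its values were seen. Of 8 other macrophage cytokines tested, 2 rose and 1 fell. Under TPM 1 was higher and 3 lower, beside 5.50% and 43.2% of all genes tested. Under plain totals 1 was higher and 2 lower, beside 8.71% and 33.1%. Tgfb1 rose by 1.09 ± 0.14 (limma adjusted p = 0.00315), Ebi3, a subunit of IL-27, rose by 0.61 ± 0.15 (limma adjusted p = 0.0185), and Il15 fell by 1.09 (limma adjusted p = 0.00798).

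**Figure D4:**
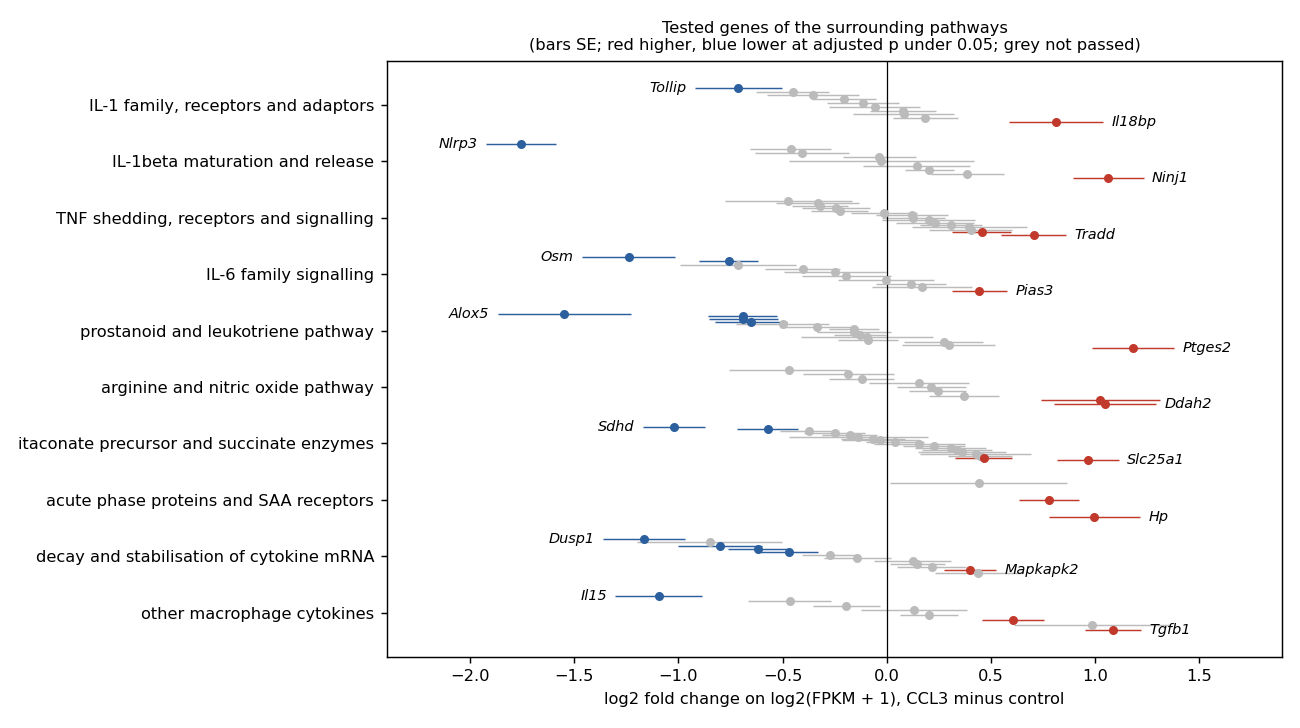
Log2 fold change (CCL3 minus control, bars SE) of the 108 tested pathway genes by list, red for genes higher and blue for genes lower at a limma adjusted p under 0.05. Called genes lie on both sides of 0, led by Nlrp3 and Alox5 below and by Ptges2 and Tgfb1 above.

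Beside these genes on the chromosome, Tnf lies between Lta and Ltb, both under the filter on low genes. Kctd12, next to Acod1, was lower with CCL3, at -0.82 (limma adjusted p = 0.0143). Ckap2l, 2398 bases from Il1a, was higher, at 1.09 (limma adjusted p = 0.0345). Kctd12 and Ckap2l were chosen after their values were seen. Genes that overlap Il1b, Il1a or Ptgs1 on the other strand had mean levels of at most 0.0236 FPKM in either group.

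Markers of other cell types were read beside Saa3, which was called higher with CCL3. They were also read beside Il1a, which lay above control on very few fragments and without a call that supports a difference. Dendritic cell markers summed to between 3.38 and 4.79 FPKM in control and between 8.12 and 9.997 FPKM with CCL3. Of these, 3 of 3 tested (Batf3, Fscn1 and Ccr7) were called higher, beside 18.0% of all genes tested. Ccr7, at 0.402 FPKM in control and 1.62 FPKM with CCL3, passed the filter only through its CCL3 libraries. Its call is therefore no support for a difference. The 6 dendritic markers too low to test included Cd209a, at 0.518 FPKM in control and 0.0252 FPKM with CCL3 without overlap, and Flt3, Zbtb46, Clec9a and Xcr1, whose means were also lower with CCL3. Erythroid and megakaryocyte markers summed to between 1.69 and 2.67 FPKM in control and between 7.04 and 12.6 FPKM with CCL3. Hba-a1, Itga2b and Gp9 were called higher, but their control means were only 0.880, 0.643 and 0.288 FPKM. They too passed the filter only through their CCL3 libraries, so these calls are no support for a difference. Klf1, too low to test, was at 0.176 FPKM in control and 0.0134 FPKM with CCL3. Stromal markers summed to between 2.39 and 4.63 FPKM and between 5.54 and 8.84 FPKM, with Lum at 0, and mast cell markers to between 0.207 and 0.580 FPKM and between 1.21 and 1.70 FPKM, with Fcer1a at 0 and no gene high enough to test. With CCL3 the mast cell sum was mostly Prss34, at 1.27 FPKM, against 0.117 FPKM in control. Without Prss34 the mast cell sums overlapped, at 0.1674 to 0.3455 FPKM in control and 0.1691 to 0.3437 FPKM with CCL3. Kit was at 0.197 FPKM in control and 0.0957 FPKM with CCL3. Neutrophil marker sums overlapped, at 21.5 to 41.2 FPKM in control and 31.0 to 53.1 FPKM with CCL3, with Ly6g at 0. Within that list S100a8 rose from 9.22 to 22.9 FPKM (limma adjusted p = 0.0185) and Mmp8 fell from 2.69 to 1.47 FPKM (limma adjusted p = 0.0379), and Mpo and Elane, too low to test, were above control in every CCL3 library. Sums also overlapped for B cell markers, with Pax5 at 0, and for T and NK cell markers, none high enough to test. Without Lck, the highest of the T and NK markers, the sums did not overlap. They were then 0.0948 to 0.209 FPKM in control and 0 to 0.0536 FPKM with CCL3. Endothelial markers summed to 1.96 to 2.13 FPKM in control and 1.38 to 1.89 FPKM with CCL3, with Tek at 0. Most of that sum was Kdr, at 1.92 and 1.35 FPKM, which did not pass (limma adjusted p = 0.107). Without Kdr the sums overlapped, at 0.0565 to 0.293 FPKM in control and 0.223 to 0.431 FPKM with CCL3. Tie1, too low to test, was above control in every CCL3 library, at means of 0.0191 and 0.203 FPKM. Marker genes named here beyond the highest and those at 0 were chosen after their values were seen. The part of these cell types in the levels of Saa3 and Il1a was not tested.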

How the data were processed

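Messenger RNA of 3 control and 3 CCL3 libraries was measured. The authors deposited 1 table of FPKM values with gene length and position. The submitters' processing notes name mm10 as the build. The sources used here do not give the aligner, the counter, the annotation, or how strand and multi-mapping reads were treated, so reads of overlapping or near-identical genes are uncertain. In every library, FPKM times length came in whole multiples of a single step (tolerance 0.02), and those multiples are the fragments given. The deposited divisors were proportional to median-ratio size factors over 12980 genes. Groups and columns were matched by the labels' titles.

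Genes averaging 1 FPKM or more were tested on log2(FPKM + 1) in limma 3.58.1 (R 4.3.3) with a variance trend and empirical Bayes moderation, two-sided, with Benjamini-Hochberg adjustment over all 9218 genes and a threshold of 0.05. Members and lists were chosen with earlier results of these data known. Named were the 10 genes, up to 4 genes past the threshold per pathway list by size of change, and for marker lists the highest genes and those at 0. Intervals and floors (3 fragments) cover counting error only. Steps were tested on simulated data. Alternatives were other pseudocounts, filters, scalings, GC correction, a replicate block and leaving out libraries; the GC corrections and leaving out both replicates numbered 3 were chosen after seeing the data. The C/EBP letters first planned held an extra base and were replaced by TTGCGCAA.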

Additional observations from a re-analysis of the deposited data

How the results depend on the processing

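No direction of Tnf, Acod1, Saa3 or Ptgs1 reversed in the 19 alternatives run for each, where Tnf passed in 18, Saa3 in 17, Acod1 in 8 and Ptgs1 in 2. These counts include the median-ratio scaling, which equals the deposited values and could only repeat their result. The cause of lost calls was not tested. The number of the 10 genes called higher, 1 with the deposited values, was 2 with a filter at 0.1 FPKM, with or without a pseudocount of 0.1 (adding Il1a, which passes that filter only through its CCL3 libraries), and between 0 and 1 when a library was left out. The number called lower, 2 with the deposited values, was 1 with that filter, with or without that pseudocount, 0 with no filter, 1 after quantile normalization, 1 after GC correction, 1 after GC and length correction, 3 under TPM and 3 under plain totals (adding Ptgs1), and between 1 and 2 when a library was left out. Pathway genes called higher, 15, were 5 under TPM, 7 under plain totals and between 5 and 14 when a library was left out; those called lower, 15, were 47 under TPM, 34 under plain totals and between 7 and 16. Genes called in all, 2990, were 4493 under TPM and between 1127 and 3155 when a library was left out, with 1127 without control replicate 2, 1651 without control replicate 1 and 1922 without CCL3 replicate 3. Of all genes called, 1655 were higher and 1335 lower with the deposited values, 507 and 3986 under TPM, and 803 and 3047 under plain totals. Whether the replicate numbers pair the libraries is not stated in the labels. Deviations of same-numbered libraries correlated at -0.0628, 0.387 and 0.503. Control replicates 2 and 3 correlated best with the CCL3 library of the same number, but control replicate 1 correlated best with CCL3 replicate 2, at 0.413. With 3 libraries per group, these correlations cannot decide whether libraries were paired. With a replicate block, 3897 genes and 23 higher pathway genes were called, with 1 and 2 of the 10 genes still higher and lower. Il6, Nos2 and Ptgs2, with at most 9 fragments in any library, are limited by depth.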
